A study of Mus musculus with 20 samples.

Results

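The 3 superoxide dismutases, catalase and the 6 peroxiredoxins form the core of the enzymes that remove superoxide and hydrogen peroxide. In mouse, these are *Sod1*, *Sod2*, *Sod3*, *Cat* and *Prdx1* to *Prdx6*. These 10 genes were chosen by name, for their function, out of the 25655 genes in the tables, and each of the 10 had counts. RNA was sequenced from the utricle, the vestibular organ that senses linear acceleration, of female C57BL/6J mice that were operated on at 8 weeks of age and sampled 4 weeks later. All mice carried a subcutaneous pellet made to release its content over 60 days. The sham + v group had a sham operation and a vehicle pellet, and kept its ovaries. The OVX + v group was ovariectomized and had a vehicle pellet. The OVX + E2 group was ovariectomized and had 50 µg of 17β-estradiol, and the OVX + RAL group was ovariectomized and had 2.4 mg of raloxifene, a selective estrogen receptor modulator. Each group had 5 libraries, numbered in the labels from 1 to 5, 6 to 10, 11 to 15 and 16 to 20 in this order. As models these groups have limits: the stage of the estrous cycle of the sham + v mice was not considered, hormone release was systemic, and RNA was taken from the whole dissected utricle, so that each library mixed its cell types.

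Superoxide dismutases convert superoxide to hydrogen peroxide and oxygen. *Sod1* encodes the copper- and zinc-containing enzyme of the cytosol, *Sod2* the manganese enzyme of the mitochondrial matrix, and *Sod3* a secreted copper- and zinc-containing enzyme that binds to the extracellular matrix. Hydrogen peroxide is then removed by catalase, a heme enzyme of peroxisomes, and by peroxiredoxins, which reduce peroxides with a reactive cysteine that is in most of them recharged by thioredoxin. PRDX1 and PRDX2 act mainly in the cytosol, PRDX3 in mitochondria, PRDX4 in the endoplasmic reticulum and the secretory pathway, PRDX5 in several compartments including mitochondria, and PRDX6, which uses glutathione, mainly in the cytosol. Hair cells and the ion-transporting dark cells of the inner ear have a high demand for mitochondrial energy, and loss of antioxidant enzymes is known to sensitize the inner ear to damage.

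The libraries held between 1123053 and 2081747 counts, and 3 counts, the floor used here, made between 1.44 and 2.67 CPM, that is counts scaled to a total of 1e6 per library. The OVX + E2 libraries were the smallest as a group, with at most 1507667 counts. In them, 23.5% to 45.6% of the 7812 genes with a mean between 10 and 100 CPM had 3 counts or fewer, against 13.7% to 29.9% in sham + v, 14.5% to 19.6% in OVX + v and 16.3% to 19.5% in OVX + RAL. Libraries 13 and 14 of the OVX + E2 group stood highest, at 43.3% and 45.6%, and log2 fold changes of the OVX + E2 group are also given without them. Markers of the utricle were present in every library: 10 hair cell markers summed to between 592 and 1736 CPM, and 10 markers of supporting cells and the otoconial membrane to between 2062 and 5173 CPM. Markers of surrounding tissues were present too, and some are given beside results below. In bulk RNA of this kind, fewer cells of a type and less RNA per cell cannot be told apart.

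Induction of genes of this family by oxidative stress is known to run through the antioxidant response element, the binding site of NRF2, while the estrogen receptors bind the estrogen response element. Windows of 250 bases before to 50 bases after the start site were at hand in RefSeq (build GRCm38.p6) for 8 of the 10 genes, all but *Sod3* and *Prdx6*. On either strand, the antioxidant response element TGACNNNGC was found in 2 of the 8, *Prdx1* and *Sod1*, and in 12.4% of all 32851 windows. The bases before the start site of both genes are shown, since they are the only 2 windows of the family with this element, which is in capitals and lies on the minus strand relative to the gene in each.
Prdx1, chr4:116685349-116685598, plus strand: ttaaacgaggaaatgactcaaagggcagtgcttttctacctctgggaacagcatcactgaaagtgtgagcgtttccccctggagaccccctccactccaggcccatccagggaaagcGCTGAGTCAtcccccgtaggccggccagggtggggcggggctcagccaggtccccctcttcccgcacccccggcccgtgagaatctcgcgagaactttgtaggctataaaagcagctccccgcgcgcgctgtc
Sod1, chr16:90220512-90220761, plus strand: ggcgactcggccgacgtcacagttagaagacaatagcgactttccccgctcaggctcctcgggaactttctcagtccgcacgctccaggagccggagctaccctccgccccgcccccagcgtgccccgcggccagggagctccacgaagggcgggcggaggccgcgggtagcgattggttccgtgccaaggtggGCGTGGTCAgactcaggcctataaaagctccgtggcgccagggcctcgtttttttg
The element spanned the bases from 133 to 125 before the start site in *Prdx1* and from 56 to 48 before it in *Sod1*. In *Sod1* it overlapped the letters GGTCA, a single arm of the estrogen response element, which was found in 4 of the 8 windows (*Cat*, *Sod1*, *Sod2* and *Prdx3*) and in 40.5% of all windows. The full estrogen response element, both arms facing each other with 3 bases between, was found in 0 of the 8 windows and in 0.0700% of all windows. The GC box GGGCGG, bound by Sp1, was found in 8 of the 8 and in 35.7% of all windows, the FOXO element GTAAACA in 0 of the 8 and in 3.65%, and the TATA box TATAAA in 3 of the 8 (*Prdx1*, *Sod1* and *Prdx3*) and in 13.6%. A match describes these letters only, and says nothing of whether a factor was bound.

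The genes of the family differed widely in abundance. Since the kit reads each transcript at its 3′ end, CPM was compared between genes without division by length, and the values below are levels. Reads carried no molecular identifiers, so that a count is one of reads and not of transcripts. *Sod3* had the highest mean over the 20 libraries, 1227 CPM, and ranked 71st of all genes, followed by *Sod1* at 928 CPM and rank 103. *Prdx5* (394 CPM), *Prdx1* (367 CPM), *Prdx2* (214 CPM), *Prdx6* (162 CPM) and *Sod2* (124 CPM) were intermediate, and *Cat* (45.4 CPM), *Prdx4* (39.6 CPM) and *Prdx3* (18 CPM) were the lowest, with *Prdx3* at rank 7634. Between neighbours in this order, the mean difference of log2(CPM + 1) within a library exceeded its SD only from *Sod1* to *Prdx5* (1.28 ± 0.47, higher in 20 of 20 libraries) and from *Sod2* to *Cat* (2.51 ± 2.22, higher in 18 of 20). *Sod3* and *Sod1* were not separated in this way (0.19 ± 0.92, *Sod3* higher in 15 of 20), nor were the mitochondrial *Prdx3* and its neighbour *Prdx4* (1.70 ± 2.49, *Prdx4* higher in 19 of 20). The SD is the spread of single libraries, so an order that most libraries share can miss this mark, as also for *Prdx1* over *Prdx2* (18 of 20). *Cat* stood above *Prdx4* by mean CPM only, and within libraries it was higher in 8 of 20 (-0.56 ± 1.90). Together the 10 genes made 3682 ± 663 CPM in sham + v, 3351 ± 560.1 in OVX + v, 3543 ± 628 in OVX + E2 and 3500.3 ± 943 in OVX + RAL (SD, n = 5).

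**Figure D1:**
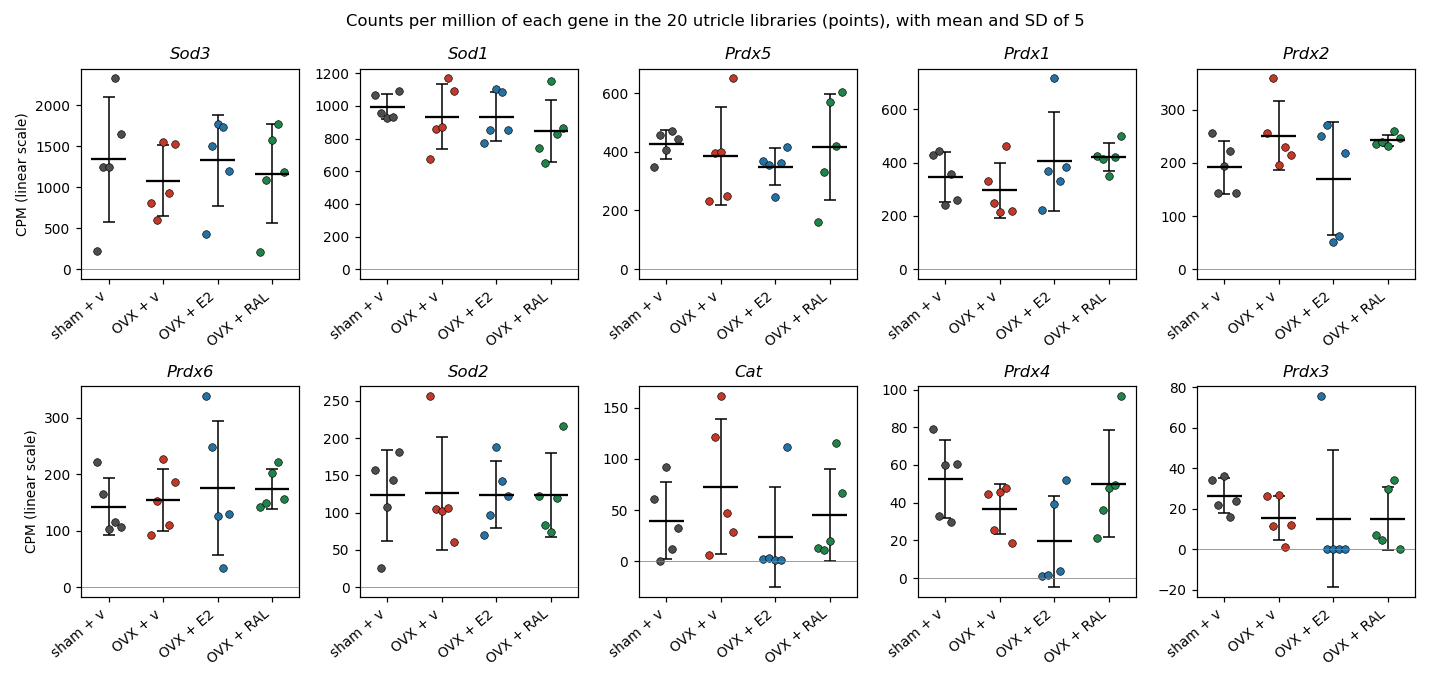
Each panel plots 1 gene, ordered by mean level, with CPM on a linear vertical axis and the 4 groups on the horizontal axis. Points are libraries in the order of their numbers, and the bar and whiskers are the mean and SD of 5 libraries. The groups overlap in every panel, and in *Prdx3* 4 of the 5 OVX + E2 libraries lie at 0 while the remaining one is the highest of all 20, at 75.6 CPM.

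The design asks whether loss of the ovaries changed these genes (sham + v against OVX + v) and whether either drug did so in ovariectomized mice (OVX + E2 and OVX + RAL against OVX + v). These 3 comparisons share the 5 OVX + v libraries. With the quasi-likelihood test of edgeR and p-values adjusted over all tested genes (Benjamini-Hochberg), 0 of the 10 genes passed the threshold of 0.05 in any of them, where 0.0145% of all genes passed in sham + v, 0.0584% in OVX + E2 and 0.0286% in OVX + RAL. In the comparison of OVX + E2 with OVX + RAL, 0 of 10 passed and 0.0727% of all genes did. A test of any difference among the 4 groups called 0 of 10, and 0.141% of all genes. With so few calls among all genes, 0 of 10 is near the background in each comparison. The lowest adjusted p-values of the family in these fits were 0.738 for *Sod3* in sham + v, 0.686 for *Sod3* in OVX + E2 and 0.587 for *Prdx1* in OVX + RAL. The place of *Sod3* depended on the tool. In sham + v its unadjusted p was 0.112 by edgeR, 0.595 by its robust form, 0.581 by DESeq2 and 0.721 by limma. By these other tools the smallest fell to *Prdx2* (0.248, robust, and 0.147, DESeq2) and *Cat* (0.188, limma). In OVX + E2 it fell to *Prdx1* (0.143, robust) and *Cat* (0.187, DESeq2, and 0.0321, limma).

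At an unadjusted p under 0.05, edgeR held 0 of the 10 genes in each of these comparisons, while it held 12.5%, 13.9%, 12.1%, 14.1% and 16.3% of all genes in the order above. DESeq2 held 1, *Prdx1* in OVX + RAL, with an adjusted p of 0.814 (0.472 to 1 over 18 alternatives), and limma 1, *Cat* in OVX + E2, with an adjusted p of 0.836 (0.451 to 1.000 over 19 alternatives). In sham + v, OVX + E2 and OVX + RAL against OVX + v and in OVX + E2 against OVX + RAL, DESeq2 held 4.95%, 5.24%, 5.05% and 5.64% of all genes at this p, and limma 4.27%, 5.46%, 4.57% and 5.69%. None of the 10 genes had groups that did not overlap in CPM, which was the case for 0.499% of all genes in sham + v, 0.832% in OVX + E2, 0.578% in OVX + RAL and 0.909% between OVX + E2 and OVX + RAL. Of the log2 fold changes against OVX + v, 6 of 10 were above 0 in sham + v (median 0.12, and -0.023 over all genes), 4 of 10 in OVX + E2 (median -0.023, and -0.060 over all genes) and 5 of 10 in OVX + RAL (median 0.041, and -0.033 over all genes). A missed threshold does not show that the groups were alike. The 95% intervals given with each gene rest on a spread that edgeR pooled over genes, and can be too narrow for a gene that varies more. For *Sod3* in sham + v, the standard error was 0.20 by edgeR, 0.56 by its robust form and 0.54 by DESeq2. Larger differences of *Sod3* thus remain possible than its interval states.

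**Figure D2:**
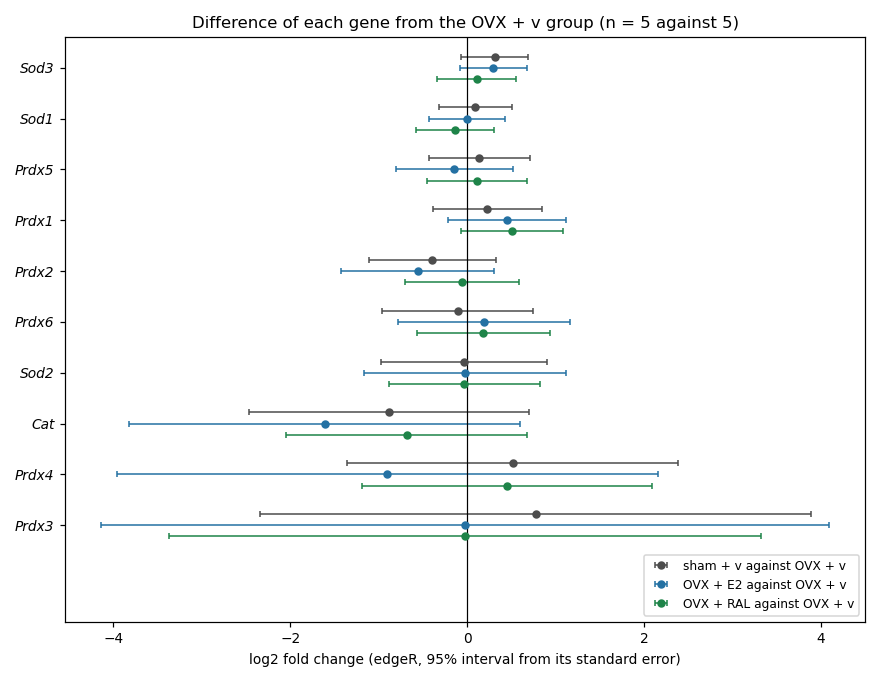
The horizontal axis is the log2 fold change of sham + v, OVX + E2 and OVX + RAL against OVX + v by edgeR, and each row is a gene, ordered by mean level. Points are estimates and whiskers 95% intervals from the standard error. Every interval includes 0, and the intervals widen from *Sod1*, whose interval in OVX + E2 runs from -0.43 to 0.43, to *Prdx3*, where it runs from -4.13 to 4.09.

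Among the superoxide dismutases, the cytosolic *Sod1* (ENSMUSG00000022982, chr16:90017642-90023217, GRCm39, plus strand) was the steadiest gene of the family. Its level was 1066, 959, 929, 933 and 1092 in the sham + v group, 673, 858, 874, 1171 and 1093 in OVX + v, 774, 851, 1107, 1085 and 855 in OVX + E2 and 744, 649.5, 1153, 831 and 864 in OVX + RAL, in CPM. No group stood apart, and the lowest and the highest sham + v libraries lay within the range of OVX + v. The log2 fold change of *Sod1* against OVX + v was 0.093 (95% interval -0.32 to 0.51) in sham + v, 0.0009 (95% interval -0.43 to 0.43) in OVX + E2 and -0.14 (95% interval -0.58 to 0.31) in OVX + RAL. With 1 library left out, the value in OVX + RAL ranged from -0.27 (without library 18) to -0.044 (without library 9). Its SD within groups was 17.9% of the mean where counting of independent reads alone gives 2.56%, so that the spread between libraries exceeded that of such counting. *Sod1* overlaps *Scaf4* on the opposite strand, at the 3′ ends of both genes. Whether strand was used in counting is not given in the sources used here. The summed count of *Scaf4* was 901 over the 20 libraries, against 30929 of *Sod1*.

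The mitochondrial *Sod2* (ENSMUSG00000006818, chr17:13225733-13258950, plus strand) had group means within 1.02-fold of each other, 123 ± 60.9 CPM in sham + v, 126 ± 75.6 in OVX + v, 124 ± 45.0 in OVX + E2 and 123 ± 56.2 in OVX + RAL (SD, n = 5). By library its level was 157, 25.2, 108, 144 and 182 in the sham + v group, 257, 105, 102, 106 and 59.9 in OVX + v, 70.3, 96.7, 188, 142 and 122 in OVX + E2 and 123, 83.5, 74.0, 119.6 and 216 in OVX + RAL, in CPM. The highest of all 20 values, in library 6, and the lowest, in library 2, fell in vehicle groups, and the other libraries of each group spread between them. The log2 fold change against OVX + v was -0.033 (95% interval -0.97 to 0.91) in sham + v, -0.023 (95% interval -1.16 to 1.11) in OVX + E2 and -0.031 (95% interval -0.89 to 0.82) in OVX + RAL. Without library 6 it was 0.40 in sham + v, 0.41 in OVX + E2 and 0.40 in OVX + RAL, with adjusted p-values that stayed above the threshold. Of 338 windows of 63 bases in the last 400 bases of the *Sod2* transcript, 37 (10.9%) matched more than 1 place in the genome, and how such reads were counted is not given. For the other 9 genes 0 of the windows that could be placed did so, which were all 338 for 7 of them, 221 for *Prdx4* and 190 for *Prdx5*, whose remaining windows had no unspliced match in the genome.

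*Sod3* (ENSMUSG00000072941, chr5:52521133-52528760, plus strand), the secreted enzyme, varied far more between libraries than *Sod1*. Its level was 221, 1246, 1250.5, 2330.5 and 1649 in the sham + v group, 801, 598, 1546, 929 and 1525 in OVX + v, 431, 1499, 1773, 1733 and 1198 in OVX + E2 and 209.9, 1086, 1569.6, 1769 and 1184 in OVX + RAL, in CPM. Libraries 1, 11 and 16, each of a different group, were the lowest of all 20, library 4 of sham + v was the highest, and the groups overlapped. Against OVX + v, the log2 fold change of *Sod3* was 0.31 (95% interval -0.073 to 0.69) in sham + v, 0.30 (95% interval -0.083 to 0.68) in OVX + E2 and 0.11 (95% interval -0.34 to 0.56) in OVX + RAL. The standard error depended on the fit. In sham + v it was 0.20 by edgeR, 0.56 by its robust form, 0.54 by DESeq2 and 0.19 by limma, in OVX + RAL 0.23, 0.53, 0.504 and 0.204, and in OVX + E2 0.19, 0.21, 0.33 and 0.18. By limma, on the log2(CPM + 1) scale, the difference of *Sod3* was 0.067 in sham + v, 0.24 in OVX + E2 and -0.097 in OVX + RAL. The size of the difference depended on single libraries. In sham + v the log2 fold change was 0.58 without library 1 and 0.016 without library 4, and in OVX + E2 it was 0.52 without library 11, 0.14 without library 7, and -0.050 without libraries 13 and 14. In OVX + RAL it was 0.38 without library 16 and -0.093 without library 19.

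The libraries in which *Sod3* was low also differed in cell type markers. In sham + v, OVX + E2 and OVX + RAL, the library with the lowest *Sod3* (1, 11 and 16) was also the one of its group with the lowest sum of 5 dark cell markers, at 1089, 1597 and 1212 CPM, and with the highest sum of 6 fibrocyte and mesenchyme markers, at 13071, 11712 and 14678 CPM. In the remaining libraries of all groups the dark cell sums reached 3380.5 CPM. The OVX + v group was the exception: *Sod3* was lowest in library 7, where the dark cell sum was the highest of the group (2862 CPM), dark cell markers were lowest in library 6 (1524 CPM) and fibrocyte markers highest in library 9 (11490 CPM). The sum of 7 endothelium and pericyte markers was also lowest of its group in libraries 1, 11 and 16, at 121, 262 and 140.4 CPM, and in library 6 of OVX + v, at 177 CPM. It was highest in libraries 4 (445 CPM), 8 (419 CPM) and 19 (531 CPM), the libraries with the most *Sod3* in sham + v, OVX + v and OVX + RAL, while in OVX + E2 it was highest in library 15 (572 CPM) and *Sod3* in library 13. Of the other marker lists, melanocyte markers were highest in the library with the least *Sod3* in 3 of 4 groups, and hair cell markers were lowest in the library with the most *Sod3* in 3 of 4 groups. Libraries 1, 6, 11 and 16 are the lowest-numbered of their groups. Without these 4, a setting chosen after seeing the data, the log2 fold change of *Sod3* against OVX + v was 0.49 in sham + v, 0.43 in OVX + E2 and 0.29 in OVX + RAL, with adjusted p-values of 0.546, 0.542 and 0.826. The part of the cell makeup in the level of *Sod3* was not tested. The gene whose profile over the 20 libraries was most like that of *Sod3*, by the root mean square difference of centred log2(CPM + 1) over 7253 genes, was *Cited4* (0.47, where the profile of *Sod3* itself varied by 0.94 about its mean).

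**Figure D3:**
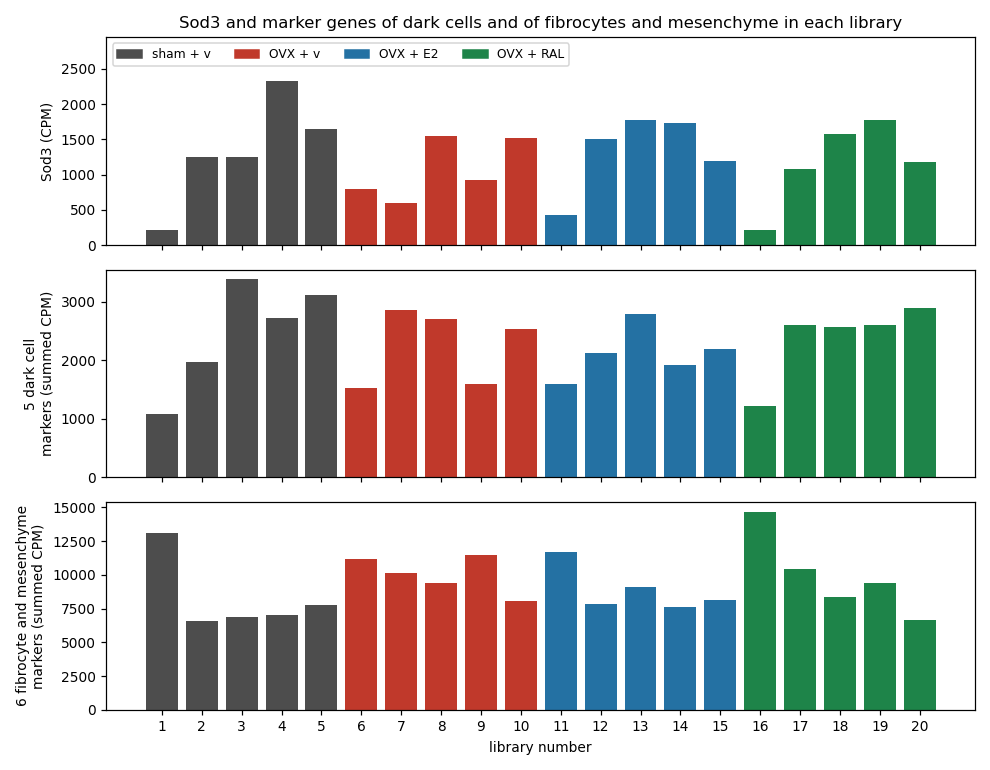
Bars give, for each of the 20 libraries in order of their numbers, the level of *Sod3* (top), the summed level of 5 dark cell markers (middle) and that of 6 fibrocyte and mesenchyme markers (bottom), all in CPM on linear axes from 0, coloured by group. Libraries 1, 11 and 16 are low in the top and middle panels and high in the bottom panel, and library 6 is low in the middle panel with *Sod3* at 801 CPM.

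Catalase, encoded by *Cat* (ENSMUSG00000027187, chr2:103284194-103315505, minus strand), was the least even gene together with *Prdx3*, with an SD within groups of 132% of its mean where counting gives 12.8%. Its counts were 125, 0, 156, 21 and 49 in the sham + v group, 9, 194, 285, 95 and 41 in OVX + v, 4, 4, 1, 1 and 159 in OVX + E2 and 26, 21, 34, 220 and 139 in OVX + RAL. Every group held both libraries with few counts of *Cat* and at least 1 with many, and the groups overlapped. In levels, the mean was 39.5 ± 37.6 CPM in sham + v, 72.9 ± 66.0 in OVX + v, 23.8 ± 49.1 in OVX + E2 and 45.4 ± 45.3 in OVX + RAL (SD, n = 5). The log2 fold change against OVX + v was -0.88 (95% interval -2.47 to 0.70) in sham + v, -1.61 (95% interval -3.82 to 0.60) in OVX + E2 and -0.68 (95% interval -2.05 to 0.68) in OVX + RAL, and none passed the test (adjusted p = 1.000, 0.774 and 1.000). With 1 library left out, the value ranged from -1.47 (without library 3) to -0.36 (without library 8) in sham + v, and from -1.38 (without library 19) to -0.16 (without library 8) in OVX + RAL. In OVX + E2, 4 of the 5 libraries had 1 or 4 counts of *Cat*, below each OVX + v library, and library 15 had 159. Without library 15 the log2 fold change in OVX + E2 was -5.23, and its adjusted p was 0.451, the lowest of any gene of the family under any alternative. Library 15 was also the OVX + E2 library with the fewest genes near 0 counts and, in the markers of erythroid cells, which are rich in catalase, the highest of all 20 (3944 CPM). The other 4 OVX + E2 libraries had between 425 and 992 CPM of these 8 markers, while in OVX + v library 8, with the most *Cat*, had 1405 CPM and library 6, with the least, 2550.3 CPM. The part of blood in the level of *Cat* was not tested.

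Of the cytosolic peroxiredoxins, *Prdx1* (ENSMUSG00000028691, chr4:116542741-116558019, plus strand) was the gene of the family with the smallest p in OVX + RAL. Its level was 429, 445, 241, 358 and 259 in the sham + v group, 332, 248, 216, 461 and 219 in OVX + v, 224, 369, 717, 329 and 382 in OVX + E2 and 423, 413, 351, 420.2 and 499 in OVX + RAL, in CPM. In OVX + RAL all 5 libraries were above 4 of the 5 OVX + v libraries, and library 9 of OVX + v lay within the OVX + RAL range. The log2 fold change against OVX + v was 0.23 (95% interval -0.39 to 0.84) in sham + v, 0.45 (95% interval -0.22 to 1.12) in OVX + E2 and 0.51 (95% interval -0.064 to 1.09) in OVX + RAL. The difference in OVX + RAL, 421 ± 52.7 against 295 ± 104 CPM (SD, n = 5), was a 1.43-fold ratio of means and missed the threshold (adjusted p = 0.587 by edgeR). Without library 9 it was 0.73, with an adjusted p of 0.533, and over all alternatives run on *Prdx1* in OVX + RAL its direction did not change. In OVX + E2, library 13 alone held the highest value of all 20, 717 CPM, and without it the log2 fold change was 0.14. In sham + v the value was 0.12 without library 2 and 0.45 without library 9.

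*Prdx2* (ENSMUSG00000005161, chr8:85696216-85701463, plus strand), the peroxiredoxin best known from red blood cells, was even in most libraries. Its level was 256, 144, 193, 223 and 143 in the sham + v group, 256, 359, 197, 229 and 215 in OVX + v, 250.1, 271, 51.3, 62.3 and 218 in OVX + E2 and 235, 239, 232, 259 and 246 in OVX + RAL, in CPM. The OVX + RAL libraries were the closest to each other, with an SD of 4.45% of the mean, and the lowest values of all 20 were those of libraries 13 and 14, the OVX + E2 libraries with the most genes near 0 counts. Relative to OVX + v, the log2 fold change was -0.39 (95% interval -1.11 to 0.33) in sham + v, -0.56 (95% interval -1.42 to 0.30) in OVX + E2 and -0.053 (95% interval -0.70 to 0.59) in OVX + RAL. In sham + v it was -0.23 without library 7. In OVX + E2 it was -0.33 without library 13 and -0.028 without libraries 13 and 14. Erythroid markers in OVX + RAL ranged from 875 to 2930 CPM while *Prdx2* stayed between 232 and 259 CPM, and libraries 13 and 14 had 992 and 755 CPM of them, within the range of the other libraries. The part of blood in the level of *Prdx2* was not tested. *Prdx2* overlaps *Rnaseh2a* and *Junb* on the opposite strand, which had 427 and 641 counts over the 20 libraries against 7324 of *Prdx2*. The overlap with *Rnaseh2a* lies at the starts of both genes, and that with *Junb* at the 3′ ends.

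*Prdx6* (ENSMUSG00000026701, chr1:161067682-161078789, minus strand), the cytosolic member that works with glutathione, had a level of 222, 166, 103, 116 and 106 in the sham + v group, 92.2, 152, 227, 110.4 and 186 in OVX + v, 339, 248, 127, 33.8 and 130.5 in OVX + E2 and 142, 149, 203, 222 and 156 in OVX + RAL, in CPM. The OVX + E2 group held both the highest and the lowest library of all 20 and thereby covered the range of every other group. Its log2 fold change against OVX + v was -0.11 (95% interval -0.96 to 0.74) in sham + v, 0.19 (95% interval -0.78 to 1.16) in OVX + E2 and 0.18 (95% interval -0.57 to 0.93) in OVX + RAL, and without library 11 the value in OVX + E2 was -0.19. In OVX + RAL it was 0.045 without library 6 and 0.37 without library 8.

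*Prdx3* (ENSMUSG00000024997, chr19:60852489-60862994, minus strand), the mitochondrial peroxiredoxin, was the lowest gene of the family and the one most often at 0. Its counts were 70, 42, 61, 28 and 36 in the sham + v group, 42, 18, 47, 2 and 17 in OVX + v, 114, 0, 0, 0 and 0 in OVX + E2 and 14, 8, 51, 65 and 0 in OVX + RAL. It was over the floor of 3 counts in 5 of 5 sham + v libraries, 4 of 5 OVX + v libraries, 1 of 5 OVX + E2 libraries and 4 of 5 OVX + RAL libraries. Against OVX + v, its log2 fold change was 0.77 (95% interval -2.34 to 3.89) in sham + v, -0.023 (95% interval -4.13 to 4.09) in OVX + E2 and -0.026 (95% interval -3.37 to 3.32) in OVX + RAL. In sham + v it was 0.47 without library 9 and 1.07 without library 8. The value near 0 in OVX + E2 rested on library 11 alone, with 114 counts. The remaining 4 libraries were each at 0, where 3 counts per library, the floor, made 2.36 CPM. The mean of OVX + v (15.4 CPM) was at least 6.52-fold higher than this floor, a bound that allows for counting error only. Library 9 of OVX + v was itself below the floor, at 0.99 CPM. The fit without library 11 still missed the threshold (adjusted p = 0.482, and up to 1.000 over 19 alternatives). Library 11 was chosen after its value was seen. With *Sod2*, the enzyme of the mitochondrial matrix, *Prdx3* summed to 141 ± 81.9 CPM in OVX + v and 139 ± 33.8 CPM in OVX + E2. *Prdx5*, whose product is found in several compartments including mitochondria, was left out of this sum.

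*Prdx4* (ENSMUSG00000025289, chrX:154106914-154123750, minus strand), the member of the secretory pathway, was uneven in OVX + E2 too. Its counts were 162, 63, 101, 53 and 91 in the sham + v group, 72, 41, 81, 96 and 27 in OVX + v, 2, 2, 49, 4 and 74 in OVX + E2 and 41, 67, 81, 94 and 201 in OVX + RAL. Libraries 11, 12 and 14 had 2 to 4 counts, while each of the other 17 libraries had at least 27, and the counts of libraries 13 and 15 of the OVX + E2 group lay within the range of OVX + v. Scaled by depth, library 15 was at 51.9 CPM, above the OVX + v libraries (18.8 to 47.5 CPM), and library 13 was at 39.3 CPM, among them. Against OVX + v, the log2 fold change was 0.52 (95% interval -1.36 to 2.39) in sham + v, -0.90 (95% interval -3.96 to 2.16) in OVX + E2 and 0.45 (95% interval -1.19 to 2.10) in OVX + RAL. It was -1.36 (95% interval -4.03 to 1.32) in OVX + E2 against OVX + RAL, the most negative value of the family in that comparison, with an adjusted p of 0.998. Without library 15 it was -1.67 against OVX + v and -2.13 against OVX + RAL. In OVX + RAL against OVX + v it was 0.074 without library 20, and in sham + v 0.32 without library 1.

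*Prdx5* (ENSMUSG00000024953, chr19:6884065-6887474, minus strand) had a level of 348, 458, 405, 471 and 443 in the sham + v group, 233, 396, 400.2, 249.6 and 651 in OVX + v, 369, 356, 244, 362 and 415 in OVX + E2 and 161, 332, 569.8, 419.7 and 603 in OVX + RAL, in CPM. The sham + v and OVX + E2 libraries lay closer together than those of OVX + v and OVX + RAL, in which the lowest and the highest of all 20 values fell, and the ranges overlapped. Its log2 fold change against OVX + v was 0.14 (95% interval -0.43 to 0.71) in sham + v, -0.14 (95% interval -0.80 to 0.51) in OVX + E2 and 0.11 (95% interval -0.46 to 0.68) in OVX + RAL. In sham + v it was 0.0038 without library 6 and 0.41 without library 10, and in OVX + RAL -0.058 without library 20 and 0.38 without library 10. The gene overlaps *Trmt112* on the opposite strand, which with 7055 counts over the 20 libraries, against 13216 of *Prdx5*, was the most abundant of the overlapping neighbours. This overlap lies at the starts of both genes, away from the 3′ ends that the kit reads.

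The low values of *Cat*, *Prdx3* and *Prdx4* fell mostly into 1 group. Of the 50 values of the 10 genes in each group, 8 (16%) were at 3 counts or fewer in OVX + E2, and 1 (2%) in each of sham + v, OVX + v and OVX + RAL. In sham + v this was *Cat* in library 2, and in OVX + v and OVX + RAL *Prdx3* in libraries 9 and 20. In OVX + E2 each of the 5 libraries held 1 or 2 such genes. The OVX + E2 group also had the lowest median of total counts (1324047) and, over all genes of 10 to 100 mean CPM, the highest median share at 3 counts or fewer (34.2%). The part of depth or library quality in these values was not tested. Without libraries 13 and 14, a setting chosen after seeing the data, the log2 fold change in OVX + E2 was -0.18 for *Sod1*, -0.39 for *Sod2*, -0.90 for *Cat*, 0.14 for *Prdx1*, 0.71 for *Prdx3*, -1.0 for *Prdx4*, -0.021 for *Prdx5* and 0.64 for *Prdx6*, and 0 of the 10 genes passed the threshold. Over the other 7 genes of the family, 0 values in any library were at 3 counts or fewer.

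**Figure D4:**
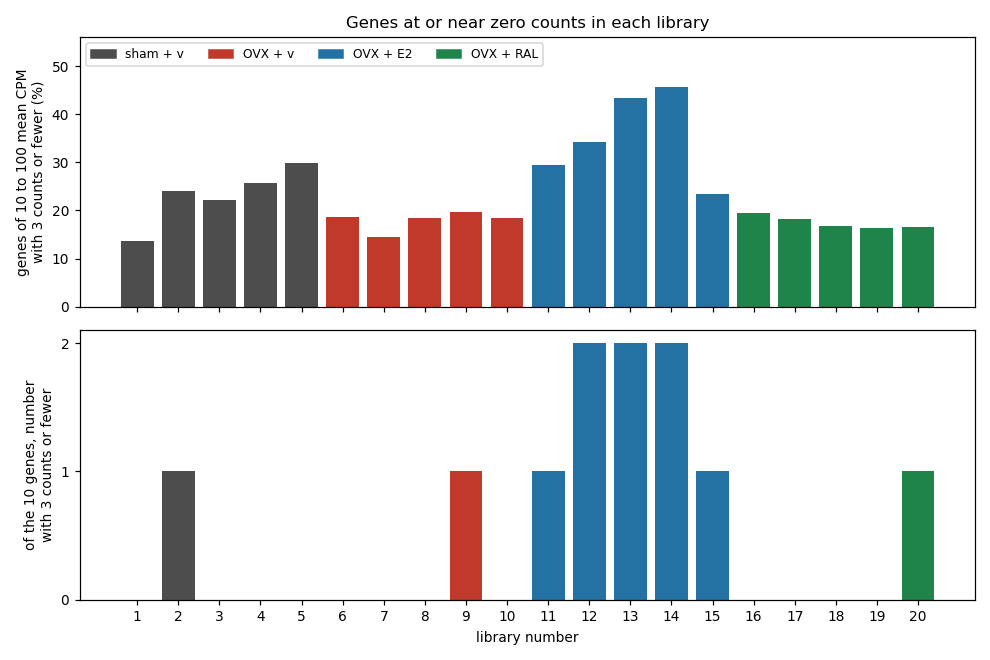
The upper panel gives, for each library, the percent of the 7812 genes with a mean of 10 to 100 CPM that had 3 counts or fewer, and the lower panel the number of the 10 antioxidant genes with 3 counts or fewer, both on linear axes from 0 and coloured by group. The OVX + E2 libraries 12, 13 and 14 are the highest in the upper panel and each has 2 such antioxidant genes.

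Estradiol and raloxifene were also compared with each other. The log2 fold changes of OVX + E2 against OVX + RAL were above 0 in 5 of the 10 genes (median -0.028, and -0.013 over all genes). Those of the superoxide dismutases were 0.14 for *Sod1*, 0.0079 for *Sod2* and 0.19 for *Sod3*. After *Prdx4*, the largest in size were -0.93 (95% interval -3.59 to 1.73) for *Cat* and -0.51 (95% interval -1.41 to 0.40) for *Prdx2*, the latter with the lowest adjusted p of the family, 0.949. The value of *Cat* was -4.56 without library 15 and -0.23 without library 19, and that of *Prdx2* -0.27 without library 13 and -0.29 without library 14. Without libraries 13 and 14 together, the log2 fold change between the drugs was -0.037 for *Sod1*, -0.36 for *Sod2*, -0.16 for *Sod3*, -0.22 for *Cat*, -0.37 for *Prdx1*, 0.025 for *Prdx2*, 0.74 for *Prdx3*, -1.45 for *Prdx4*, -0.13 for *Prdx5* and 0.46 for *Prdx6*. With all libraries it was 0.0033 (95% interval -4.09 to 4.10) for *Prdx3* and 0.012 (95% interval -0.96 to 0.98) for *Prdx6*. Both values of *Prdx3* rest on library 11, the only OVX + E2 library with counts of it. For *Prdx1*, whose estimate against OVX + v was above 0 under both drugs, the value was -0.06 (95% interval -0.73 to 0.61) between them. With 1 library left out, *Sod1* ranged from 0.058 (without library 17) to 0.28 (without library 18) and *Prdx5*, at -0.26, from -0.46 (without library 16) to -0.085 (without library 20). The comparison sets libraries 11 to 15 against deeper ones, and the shares of genes near 0 counts given above differ between the same libraries.

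Genes that work with these enzymes were described from 6 lists, and 0 genes of any list passed the threshold in any comparison. The first list held the thioredoxin system and sulfiredoxin, which recharge and repair peroxiredoxins, and related genes such as sestrins and glutaredoxins. Of this list, in sham + v 10 of 20 had a log2 fold change above 0 (median -0.025), in OVX + E2 10 of 19 (median 0.46) and in OVX + RAL 11 of 20 (median 0.077). The smallest p fell to *Sesn2*, a stress-induced sestrin, in sham + v and OVX + RAL, where it was at 0 in all 5 OVX + v libraries and over 3 counts in 1 library of either group, and to the glutaredoxin *Glrx* in OVX + E2, with 0 counts in 5 of 5 OVX + E2 libraries and 9.04 ± 7.41 CPM in OVX + v. Of the glutathione peroxidases and the enzymes that supply glutathione, in sham + v 9 of 12 had a log2 fold change above 0 (median 0.23), in OVX + E2 4 of 12 (median -0.43) and in OVX + RAL 4 of 12 (median -0.082). Their smallest p fell to *Gpx1*, the abundant cytosolic glutathione peroxidase, in sham + v (261 ± 94.7 against 213 ± 16.7 CPM, adjusted p = 1.000) and to *Slc7a11*, the cystine importer, in OVX + E2 (91.5 ± 42.4 against 179 ± 107 CPM, adjusted p = 0.521) and OVX + RAL (123 ± 25.6 CPM, adjusted p = 0.921).

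Among the carriers of copper, zinc and manganese, the metals of superoxide dismutases, in sham + v 7 of 12 had a log2 fold change above 0 (median 0.054), in OVX + E2 6 of 12 (median 0.048) and in OVX + RAL 7 of 12 (median 0.26). The smallest p fell to the copper pumps *Atp7b* in sham + v and OVX + E2, which had counts in 1 library of either group and 0 in all OVX + v libraries, and *Atp7a* in OVX + RAL, at 28.6 ± 17 against 80.9 ± 36.2 CPM (adjusted p = 0.402). Among enzymes that make superoxide or hydrogen peroxide, in sham + v 11 of 16 had a log2 fold change above 0 (median 0.70), in OVX + E2 8 of 14 (median 0.28) and in OVX + RAL 8 of 14 (median 0.30). There, *Xdh*, xanthine dehydrogenase, had 0 counts in all 5 sham + v libraries and 11.7 ± 12.2 CPM in OVX + v, and *Acox2*, a peroxisomal oxidase with the smallest p in OVX + E2 and OVX + RAL, had 0 counts in all OVX + v libraries. The genes tested in sham + v alone had counts in 1 library each, of sham + v, and so passed the filter only through that group. For these, and for genes of any list at 0 in a whole group, the sign was fixed by the filter. The shares above 0 and the medians include them and are no test. In genes of peroxisome import and membrane, the compartment of catalase, in sham + v 4 of 19 had a log2 fold change above 0 (median -0.65), in OVX + E2 4 of 19 (median -0.81) and in OVX + RAL 5 of 19 (median -0.30), so that 15, 15 and 14 of 19 were below 0. The medians over all genes were -0.023, -0.060 and -0.033, and the 3 comparisons share their OVX + v libraries. *Lonp2*, a peroxisomal protease, had the smallest p of this list in OVX + RAL, at 24.0 ± 14.3 against 99.6 ± 56.6 CPM (adjusted p = 0.402), and *Pex2* in sham + v, with 0 counts in all 5 libraries against 17.8 ± 25.5 CPM. Among regulators, including the NRF2 gene *Nfe2l2* and the estrogen receptor genes, in sham + v 6 of 14 had a log2 fold change above 0 (median -0.06), in OVX + E2 9 of 14 (median 0.10) and in OVX + RAL 5 of 13 (median -0.20). Their smallest p fell to the NRF2 target *Nqo1* in sham + v (4.87 ± 10.9 against 21.1 ± 29.1 CPM), to *Foxo3* in OVX + E2 (42.1 ± 25.7 against 103 ± 28.7 CPM, adjusted p = 0.702) and to *Keap1*, the NRF2 inhibitor, in OVX + RAL (29.9 ± 36.3 against 81.7 ± 41.0 CPM, adjusted p = 0.402).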

How the data were processed

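RNA of mouse utricles was sequenced in 4 groups of 5 libraries, grouped by the labels. The genes described and the lists of related genes were chosen with earlier results of these data known. According to the paper, the authors made libraries from 1 ng of total RNA with a 3′ mRNA kit, read 75 cycles, trimmed 12 leading nucleotides, dropped reads shorter than 20, and used CLC Genomics Workbench to map to GRCm39 and count. Its version is not given in the sources used here. The deposited counts are raw reads per gene. The deposited normalized columns and the authors' own fold changes and p-values were not used, and 0 columns belonged to samples outside the series.

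Counts were scaled to CPM by library totals. Each comparison was fitted in edgeR 4.0.16 (R 4.3.3; glmQLFit and glmQLFTest) on its 10 libraries, with total counts as library sizes, for genes with at least 10 counts in all, with Benjamini-Hochberg adjustment. Standard errors are the log2 fold change over the square root of F, and intervals cover 95%. Alternatives were TMM normalization, DESeq2 1.42.0, limma 3.58.1 on log2(CPM + 1), robust glmQLFit, other filters, a joint fit of 4 groups, leaving out 1 library at a time and, chosen after seeing the data, leaving out libraries 13 and 14 or 1, 6, 11 and 16. The pipeline was tested on simulated data. The labels do not say that libraries came from separate mice, so p-values concern these libraries only. In edgeR the spread was almost wholly pooled over genes, so that p-values and intervals hardly reflect a gene's own spread. In sham + v the standard error was 0.20 for *Sod3* and 0.21 for *Sod1*. Their SD within groups, over the 4 groups, was 48.1% and 17.9% of the mean. Reads carried no molecular identifiers, and the floor of 3 counts covers counting error only.

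Named genes were the 10 genes, for each list the gene with the smallest p in each comparison with OVX + v (1 of these is not reported here), and for each of the 10 genes the most similar gene over 20 libraries among genes of at least 20 mean CPM. Python 3.11.15 was used for all other steps.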

Additional observations from a re-analysis of the deposited data

Results flagged for a closer look

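Within groups of 5 libraries, 40 sets of values (10 genes in 4 groups) were examined for a library far from the others, by Dixon's ratio with a critical value of 0.71, which chance passes in about 1 of 20, or 2 of these 40. It was passed by 3. *Cat* in library 15 of OVX + E2 was at 111.5 CPM, where the nearest other library was at 3.02 CPM. *Prdx3* in library 11 of OVX + E2 was at 75.6 CPM, with the other 4 libraries at 0. *Sod2* in library 6 of OVX + v was at 257 CPM, where the nearest other was at 106 CPM.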

How the results depend on the processing

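None of the 10 genes passed the threshold under any of 29 alternatives (739 values of single genes, adjusted p from 0.451 to 1), and 651 values kept their direction. The number of all genes called depended on the tool. In sham + v it was 2, and 1 with TMM, DESeq2 or 1 fit of all groups, 0 with the default filter or the robust fit and 4 with limma (1 to 10 with 1 library left out). In OVX + E2 it was 8, and 35 with DESeq2, 1 with the default filter, 4 with the robust fit and 2 in 1 fit (6 to 17). In OVX + RAL it was 4, and 0 with the default filter or the robust fit and 1 in 1 fit (3 to 11). Between OVX + E2 and OVX + RAL it was 10, and 42 with DESeq2, 0 with the default filter, 6 with the robust fit and 5 in 1 fit (8 to 16). For any difference it was 21, and 2 with DESeq2, 1 with the default filter, 0 with limma and 5 with the robust fit (17 to 28). Without libraries 1, 6, 11 and 16, chosen after seeing the data, it was 12, 13, 7, 14 and 38 in the order above. The causes were not tested.

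TMM moved the median log2 fold change of all genes in OVX + E2 against OVX + v from -0.060 to -0.17. Values that changed sign were those of *Sod1* in OVX + E2 (-0.11 with TMM, -0.021 with DESeq2, -0.18 without libraries 13 and 14), and without these libraries also *Sod3* (-0.050) and *Prdx3* (0.71). Between OVX + E2 and OVX + RAL, leaving out both changed *Sod1* (-0.037), *Sod2* (-0.36), *Sod3* (-0.16) and *Prdx2* (0.025). This alternative was chosen after seeing the data. Without libraries 1, 6, 11 and 16, signs changed in sham + v for *Sod1* (-0.030) and *Sod2* (0.30), in OVX + E2 for *Sod1* (-0.036), *Sod2* (0.56) and *Prdx6* (-0.33), in OVX + RAL for *Sod2* (0.40) and *Prdx3* (0.43), and between OVX + E2 and OVX + RAL for *Prdx1* (0.094), *Prdx3* (-7.76) and *Prdx6* (-0.43). With limma, signs changed in OVX + E2 for *Sod2* (0.068) and *Prdx6* (-0.091), and in OVX + RAL for *Sod2* (0.032) and *Sod3* (-0.097), where *Sod2* was 0.018 with TMM and 0.00085 with DESeq2. Between OVX + E2 and OVX + RAL, *Sod1* (-0.0058), *Sod2* (-0.14), *Prdx3* (-0.15) and *Prdx6* (-0.14) changed with TMM, *Sod2* (-0.024) and *Prdx6* (-0.0019) with DESeq2, and *Prdx3* (-1.85) and *Prdx6* (-0.33) with limma.

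With 1 library left out, the range of the log2 fold change crossed 0 in sham + v *Sod1* (-0.0045 to 0.19), *Sod2* (-0.22 to 0.40), *Prdx6* (-0.32 to 0.078), in OVX + E2 *Sod1* (-0.10 to 0.10), *Sod2* (-0.22 to 0.41), *Prdx3* (-7.54 to 0.30), *Prdx5* (-0.28 to 0.13), *Prdx6* (-0.19 to 0.46), in OVX + RAL *Sod2* (-0.33 to 0.40), *Sod3* (-0.093 to 0.38), *Prdx2* (-0.13 to 0.11), *Prdx3* (-0.57 to 0.30), *Prdx5* (-0.058 to 0.38), and between OVX + E2 and OVX + RAL *Sod2* (-0.19 to 0.31), *Sod3* (-0.079 to 0.41), *Prdx1* (-0.37 to 0.093), *Prdx3* (-7.62 to 0.54), *Prdx6* (-0.37 to 0.28). The values of *Prdx3* below -7 come from fits without library 11, in which the OVX + E2 group is at 0 counts throughout; they depend on the prior count of the fit and measure no size. No paired analysis was possible because the labels number the libraries from 1 to 20 without a number shared between groups. *Cat*, *Prdx3* and *Prdx4* had values at or under the floor of 3 counts, also in the deepest library (*Prdx3* at 0 in library 20, of 2081747 counts), and the part of depth was not tested.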

Other observations

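The genes whose profiles over the 20 libraries were most like those of the family were looked up among 7253 genes, with the root mean square difference of centred log2(CPM + 1) as the measure. They were *Rps26* for *Sod1* (0.21), *Col1a2* for *Sod2* (0.56), *Ndufb1* for *Prdx1* (0.38), *Bnip3l* for *Prdx2* (0.41), *H2-K1* for *Prdx5* (0.30), *Cdc37l1* for *Prdx6* (0.47), *Slc1a4* for *Prdx4* (0.77), *Cep20* for *Prdx3* (1.30) and *Rrp1* for *Cat* (1.60). The libraries share their depth and cell makeup across all genes, and no test was made.

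Libraries 1, 6, 11 and 16, the lowest-numbered of each group, had the lowest dark cell marker sum of their group (1089, 1524, 1597 and 1212 CPM) and the lowest endothelium and pericyte sum (121, 177, 262 and 140.4 CPM). The labels name no batch, so whether these libraries share one was not tested.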
